A study of Homo sapiens with 6 samples.

Results

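SNARE proteins are the membrane fusion machinery of the secretory and endosomal pathways, and the 42 genes described here encode human SNAREs together with the proteins that recycle them. They were chosen by gene family, as rows of a table of 58051 genes, and each of the 42 names matched 1 row. VTI1B drew notice by its strong fall in the comparison reported here, so its values chose the family and are given as a description without a test. RNA came from U2OS cells, an established osteosarcoma line, in 2 groups of 3 libraries: siSCR, treated with a scramble siRNA, and siSURF2, treated with an siRNA that targets SURF2. Both groups had 2 rounds of transfection, 49 h apart, and were taken at 96 h. The labels name no other line and give no siRNA sequence. They also leave unstated whether a group's libraries were separate cultures, so each p-value reflects only how far these libraries scatter, possibly for technical reasons.

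In membrane fusion, a Qa, a Qb and a Qc SNARE helix on the target membrane zip together with an R SNARE, usually on the vesicle, into a bundle that pulls the membranes into contact. Qbc SNAREs of the SNAP25 type supply both the Qb and the Qc helix. After fusion the ATPase NSF and its SNAP adaptors take the bundle apart so that its members can be used again. Vti1b, the protein of VTI1B, is the Qb helix of the late endosomal bundle with syntaxin 7, syntaxin 8 and VAMP8, and its paralog Vti1a works between endosomes and the trans-Golgi network.

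Libraries held 17123333 to 19688089 counts assigned to genes. SURF2, the siRNA target, was at 36.2, 35.8 and 32.3 CPM (counts per 1000000 of the library size after TMM scaling) in siSCR and at 3.74, 3.56 and 3.20 CPM in siSURF2, given here and below in the order of replicates 1, 2 and 3. The mesenchymal filament gene VIM was abundant (1964 and 2014 CPM on average). Of 6 mesenchymal markers SPARC, CDH2, S100A6 and COL1A1 rose, and VIM and RUNX2 did not pass. Their summed level was 3244 to 3315 CPM in siSCR and 3621 to 3984 CPM in siSURF2, and its part in the results below was not tested. The blood markers CD3E, HBB and LYZ had no count in any library. One library stood apart: siSURF2 replicate 2 held 2.73% of its counts in mitochondrial genes against 4.70% and 4.74% in the other siSURF2 libraries and 2.91% to 3.50% in siSCR. It differed from the other siSURF2 libraries by a chi-square of 8.87 and 10.3 per degree of freedom, against 2.87 between them. In bulk RNA, fewer cells expressing a gene and less RNA per cell cannot be told apart.

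Short stretches just upstream of 4 of these genes show where the family's genes are read from. They were taken from RefSeq (GRCh38.p14), where 38 of the 42 members had a promoter entry, and end before the most upstream start in GENCODE release 29. VTI1B is shown for its fall, GOSR1 and SEC22B as Golgi and endoplasmic reticulum members that fell, and STX7 as the late endosomal partner of VTI1B that rose. Capitals mark a match to CCAAT, the NF-Y element, to CACGTG, the E-box of the MYC and TFEB families, or to TGACGTCA, the cyclic AMP response element, on either strand.
VTI1B, chr14:67674832-67674882, minus strand: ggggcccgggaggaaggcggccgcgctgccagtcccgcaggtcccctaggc
GOSR1, chr17:30477158-30477361, plus strand: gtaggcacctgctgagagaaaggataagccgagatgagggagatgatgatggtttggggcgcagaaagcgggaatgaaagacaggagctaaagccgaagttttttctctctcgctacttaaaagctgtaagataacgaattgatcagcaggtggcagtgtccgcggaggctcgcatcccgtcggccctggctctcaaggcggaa
SEC22B, chr1:120176521-120176770, minus strand: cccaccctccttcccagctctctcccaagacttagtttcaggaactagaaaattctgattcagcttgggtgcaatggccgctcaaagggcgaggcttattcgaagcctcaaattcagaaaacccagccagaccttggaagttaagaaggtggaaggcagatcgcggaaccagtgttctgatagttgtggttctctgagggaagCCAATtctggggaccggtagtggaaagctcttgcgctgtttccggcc
STX7, chr6:132513199-132513366, minus strand: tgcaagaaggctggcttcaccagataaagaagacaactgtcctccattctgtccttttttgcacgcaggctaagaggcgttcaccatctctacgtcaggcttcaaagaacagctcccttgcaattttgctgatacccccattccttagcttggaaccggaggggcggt

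The VTI1B stretch was 80.4% G and C, against 50.6% to 52.9% in the other stretches. These stretches are unlike in length, with 51 bases for VTI1B and 168 to 250 for the others, so the percentages are not directly comparable. Of the printed stretches, only that of SEC22B held a match. The full 250 bases upstream of the RefSeq start of STX7 also held CCAAT, outside its printed stretch. Those of VTI1B and GOSR1 held no match. In the full 250 bases upstream of each RefSeq start, CCAAT was found in 13 of 38 members (34.2%) and in 33.0% of 27305 promoters. CACGTG was found in 6 of 38 (15.8%, STX2, STX6, GOSR2, BNIP1, NAPA and SNAP29) against 6.49% of all promoters, and TGACGTCA in STX12 alone among the members (2.63% against 1.77%). The CACGTG holders included members that fell (STX6, GOSR2) and members that did not pass the test (STX2, NAPA, SNAP29, BNIP1). A match describes these letters only.

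VTI1B (ENSG00000100568, chromosome 14 at 67647075 to 67674831, minus strand, GRCh38) was at 260.0, 247 and 249.5 CPM in siSCR. In siSURF2 it was at 54.3, 52.1 and 56.7 CPM. Each siSURF2 library thus lay far below each siSCR library, and the replicates lay close together. The mean was 252 ± 6.77 CPM in siSCR and 54.4 ± 2.29 CPM in siSURF2 (SD, n = 3 in both). This is 4.64-fold less, with a log2 fold change of -2.21 ± 0.05 (SE, here and after each log2 fold change). Of the 17561 genes tested, 108 had a lower log2 fold change than VTI1B. Of the 664 genes whose siSCR mean was at least as high, ZNF542P, a transcribed pseudogene named here after its values were seen, was the 1 gene with a lower log2 fold change (-3.16 ± 0.07). Because VTI1B was chosen for its fall, and the 664 genes were cut at its own mean, these positions only describe it.

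The 3′ end of VTI1B shares 904 exon bases, 15.6% of its total, with ARG2 on the opposite strand, and 5.60% with AL049779.1 on the same strand. Whether counting used strand is not stated in the labels, so reads of overlapping genes cannot be told apart. ARG2, a mitochondrial arginase, averaged 11.6 CPM in siSCR and 12.0 CPM in siSURF2 and had a log2 fold change of 0.05 ± 0.10 (edgeR adjusted p = 0.71). The 4 processed pseudogenes VTI1BP1 to VTI1BP4 held 13, 15, 0 and 2 counts over the 6 libraries, against 16984 for VTI1B.

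Among the Qb genes, VTI1B supplied most of the RNA in siSCR. Per kb of exon, its level was 43.6 ± 1.17 CPM per kb in siSCR and 9.40 ± 0.396 in siSURF2 (SD, n = 3 each). By this length it ranked 2 of the 42 members in siSCR, after the R SNARE YKT6 (86.6 CPM per kb), and 14 in siSURF2. Its share of the summed Qb level was 70.7%, 69.6% and 69.9% over the siSCR libraries and 38.6%, 39.3% and 40.3% over the siSURF2 libraries, in the order of their numbers. The log2 ratio of VTI1B to VTI1A per kb was 3.71, 3.60 and 3.57 in siSCR and 1.50, 1.72 and 1.68 in siSURF2, so VTI1B stayed the higher paralog in every library. These values depend on the length used. With median lengths of coding transcripts (576 bases for VTI1B), chosen after seeing the data, the mean share of VTI1B was 80.1% in siSCR and 54.5% in siSURF2. The mean log2 ratio to VTI1A was then 5.44 and 3.44, against 3.63 and 1.63 by exon length. VTI1B then ranked 1 in siSCR, above YKT6, and 4 in siSURF2.

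**Figure D1:**
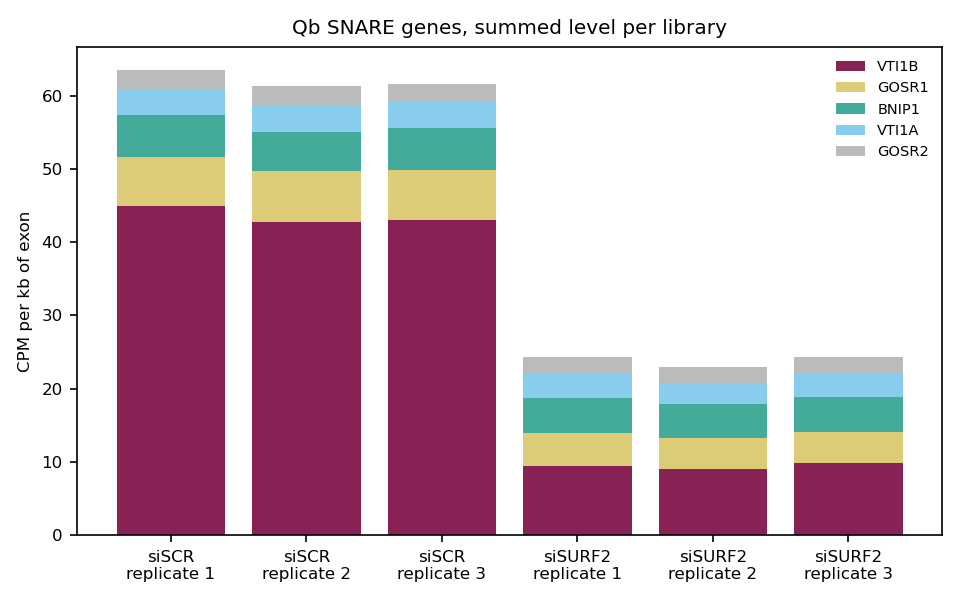
Summed level of the 5 Qb SNARE genes in each library, in CPM per kb of exon (stacked bars, axis from 0). VTI1B, the lowest segment, averaged 43.6 CPM per kb in siSCR and 9.40 in siSURF2, and the other 4 segments differ far less in height.

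Of the 41 other members, 39 had enough counts to be tested. With siSURF2, 11 rose and 16 fell, which leaves 12 that were not called (adjusted p under 0.05 by edgeR's quasi-likelihood test, with Benjamini-Hochberg adjustment across the whole table), beside 25.8% higher and 26.2% lower over all 17561 genes. Their median log2 fold change was -0.04, and that of all genes 0.00. The falls included 9 of 12 SNAREs of the endoplasmic reticulum and Golgi, and the rises came from the endosomes, the trans-Golgi network, the plasma membrane and the autophagosome; differences between compartments were not tested. Without siSURF2 replicate 2 the counts were 11 higher and 14 lower. When ERCC spike-in RNA totals set the scaling they were 1 higher (STX1A) and 2 lower (STX3 and STX11). The share of all genes called under that scaling is not given here, so these counts cannot be set against it. The median log2 fold change of all genes was then -0.04. The spike-ins made up 1.12% to 1.72% of counts in siSCR and 1.27% to 1.72% in siSURF2.

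**Figure D2:**
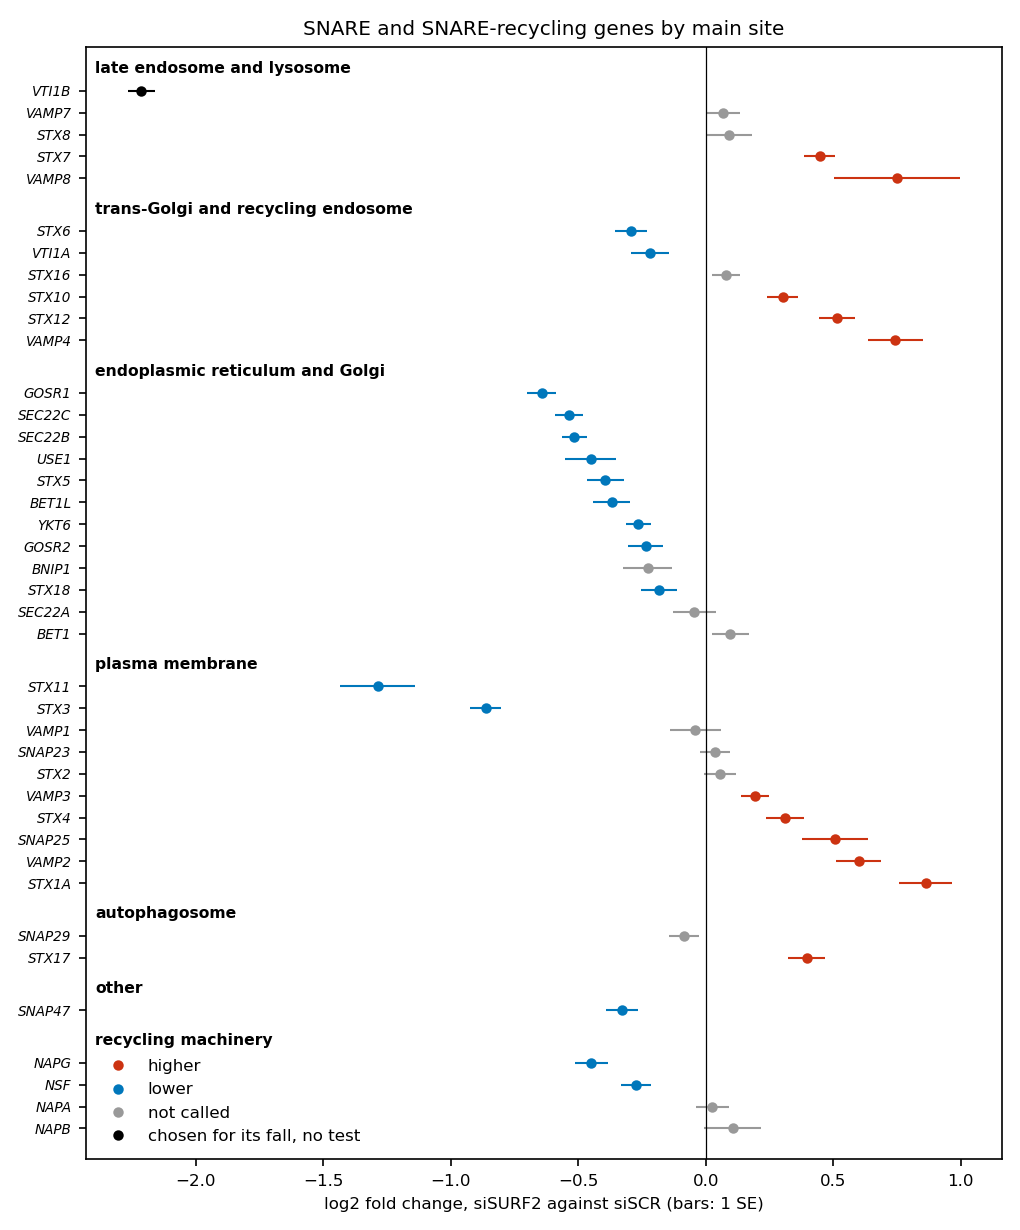
Log2 fold change of each tested member, siSURF2 against siSCR, by the compartment where its protein mainly acts (points, with bars of 1 SE; colours give the edgeR call at an adjusted p under 0.05, and VTI1B is in black). Of the 12 endoplasmic reticulum and Golgi genes 9 are called lower, while the plasma membrane genes range from -1.29 for STX11 to 0.86 for STX1A.

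Of the 4 late endosomal partners of VTI1B, 2 rose and 2 did not pass the threshold. STX7, the Qa SNARE of that bundle (chromosome 6 at 132445867 to 132513198), was at 43.4, 41.9 and 41.6 CPM in siSCR and at 59.3, 55.5 and 58.1 CPM in siSURF2. Its groups did not overlap, and the rise was 0.45 ± 0.06 on the log2 scale (adjusted p = 3.3e-07). STX8, the Qc SNARE, was at 16.7, 14.9 and 15.5 CPM and then at 17.5, 15.3 and 17.2 CPM, with overlapping groups and a log2 fold change of 0.09 ± 0.09 (adjusted p = 0.41). VAMP7, an R SNARE of late endosomes and lysosomes, had a log2 fold change of 0.07 ± 0.07 (37.2 ± 2.40 and 38.9 ± 0.680 CPM, adjusted p = 0.42). VAMP8, the usual R SNARE of the bundle, was scarce: 1.84, 1.07 and 1.44 CPM in siSCR and 2.03, 2.43 and 2.80 CPM in siSURF2. It rose by 0.75 ± 0.25 (adjusted p = 0.013), but the adjusted p was 0.079 with DESeq2, 0.083 without siSCR replicate 2 and 0.063 without siSURF2 replicate 3, within a range of 0.0075 to 0.28 over all settings. None of these 4 partners fell by edgeR, and at an unadjusted p under 0.05 or with DESeq2 or limma-voom the count of falls was 0 as well. These tests all used the same libraries. With only 4 genes, neither 2 rises nor 0 falls can be set against the shares of all genes (25.8% higher and 26.2% lower).

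**Figure D3:**
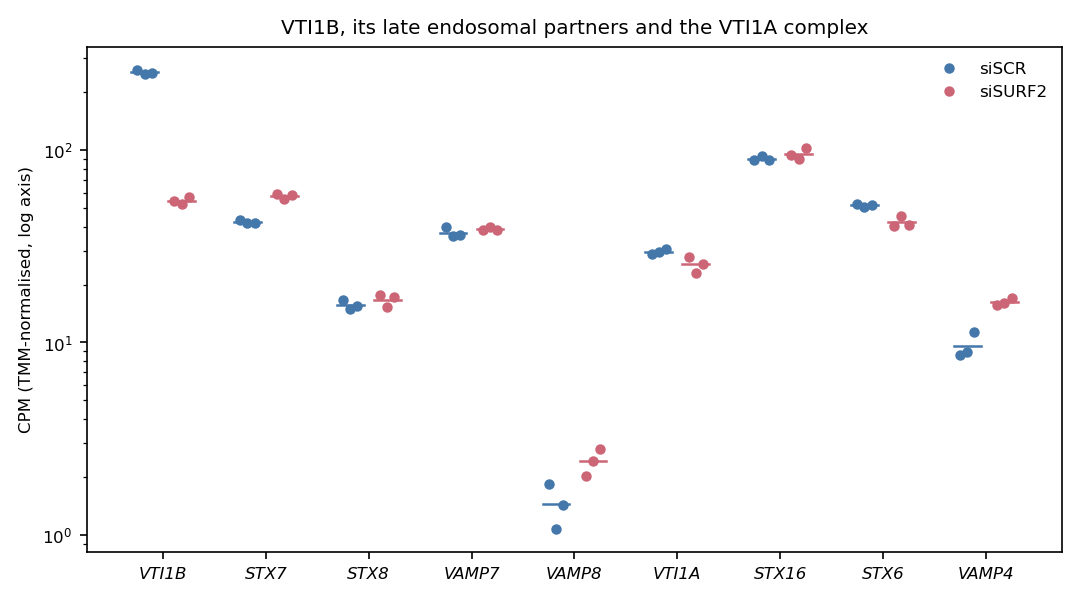
CPM of VTI1B, its late endosomal partners STX7, STX8, VAMP7 and VAMP8, and of VTI1A with its trans-Golgi partners, in each library (points; log axis; horizontal lines are group means). VTI1B averages 252 CPM in siSCR and 54.4 CPM in siSURF2, while STX7 sits higher in siSURF2 (57.7 against 42.3 CPM) and VTI1A slightly lower (25.5 against 29.6 CPM).

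Of 6 genes in the set around the paralog VTI1A and the recycling endosome, 3 rose, 2 fell and 1 did not pass. Over all genes 25.8% were higher and 26.2% lower, and 6 genes are too few to set against these shares. VTI1A itself (chromosome 10 at 112446998 to 112818744) was at 28.9, 29.5 and 30.5 CPM in siSCR and at 27.8, 23.0 and 25.7 CPM in siSURF2, a fall of 0.22 ± 0.08 on the log2 scale (adjusted p = 0.017). That call was lost with upper-quartile factors (adjusted p = 0.065), with DESeq2 (0.068), without siSCR replicate 2 (0.055) and without siSURF2 replicate 2 (0.13), within a range of 0.013 to 0.69. Its Qc partner STX6 fell from 51.6 ± 0.839 to 42.1 ± 2.95 CPM (SD, n = 3 each), by 0.29 ± 0.06 (adjusted p = 2.9e-04). The Qa partner STX16 had a log2 fold change of 0.08 ± 0.06 (adjusted p = 0.25), and 28.4% of its exon bases lie in the readthrough gene STX16-NPEPL1.

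The R SNARE of this bundle went the other way. VAMP4 was at 8.57, 8.93 and 11.3 CPM in siSCR and at 15.6, 16.0 and 16.9 CPM in siSURF2, and it rose by 0.74 ± 0.11 (adjusted p = 1.2e-06). STX12, which encodes syntaxin 13 of recycling endosomes, was at 24.5, 25.8 and 28.2 CPM and then at 35.8, 38.6 and 37.9 CPM, a rise of 0.51 ± 0.07 (adjusted p = 6.2e-07). STX10, a Qc relative of STX6, rose from 50.7 ± 3.33 to 62.3 ± 3.29 CPM (0.30 ± 0.06, adjusted p = 1.8e-04). The relatives STX6 and STX10 thus moved in opposite directions.

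Of the 12 SNARE genes of the early secretory pathway, 9 fell, 3 did not pass and none rose by edgeR, beside 26.2% lower and 25.8% higher over all genes (none rose at an unadjusted p under 0.05, with DESeq2 or with limma-voom either). The median log2 fold change of the 12 was -0.32. The Qb SNARE GOSR1, known as GS28 (chromosome 17 at 30477362 to 30527592), fell most. It was at 66.1, 69.3 and 66.7 CPM in siSCR and at 44.4, 42.2 and 42.8 CPM in siSURF2, without overlap, a fall of 0.64 ± 0.06 on the log2 scale (adjusted p = 2.5e-10). GOSR2, known as membrin, which moves vesicles into the Golgi, fell from 38.2 ± 2.71 to 32.4 ± 0.915 CPM (-0.24 ± 0.07, adjusted p = 0.0051).

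Of the R SNAREs of this route, SEC22B, SEC22C and YKT6 fell and SEC22A did not pass. SEC22B, which acts between the endoplasmic reticulum and the Golgi (chromosome 1 at 120150898 to 120176515), was at 184, 189.5 and 178 CPM and then at 128, 125 and 133 CPM, with no overlap (-0.52 ± 0.05, adjusted p = 1.2e-09). SEC22C, its relative, was at 89.8, 94.6 and 98.9 CPM and then at 64.3, 66.0 and 65.4 CPM (-0.53 ± 0.05, adjusted p = 3.4e-09). The third relative, SEC22A, had a log2 fold change of -0.04 ± 0.08 (adjusted p = 0.69), and shares 10.4% of its exon bases with PDIA5 on the same strand, so 1 of the 3 SEC22 genes did not pass. YKT6, a lipid-anchored R SNARE, fell from 321 ± 11.0 to 267 ± 5.13 CPM (-0.26 ± 0.05, adjusted p = 3.3e-05).

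STX5, the Qa SNARE of the Golgi, fell from 35.1 ± 2.19 to 26.7 ± 1.75 CPM (-0.39 ± 0.07, adjusted p = 4.4e-05), and the Golgi Qc SNARE BET1L fell by 0.37 ± 0.07 (adjusted p = 1.1e-04). Its relative BET1 had a log2 fold change of 0.10 ± 0.07 (adjusted p = 0.27). The bundle that receives vesicles returning to the endoplasmic reticulum holds STX18, BNIP1, USE1 and SEC22B. USE1, its Qc SNARE, fell from 15.3 ± 1.29 to 11.1 ± 0.793 CPM (-0.45 ± 0.10, adjusted p = 4.2e-04). STX18, the Qa SNARE, fell by 0.18 ± 0.07 (adjusted p = 0.034), a call lost in 9 settings besides the spike-in scaling, among them DESeq2 (0.11), upper-quartile factors (0.11) and the omission of any 1 library other than siSCR replicate 3 (0.062 to 0.15), within a range of 0.0041 to 0.77. BNIP1, the Qb SNARE, lay just outside the threshold (-0.23 ± 0.10, adjusted p = 0.051) at 13.6 ± 0.548 and 11.6 ± 0.288 CPM. No endoplasmic reticulum or Golgi member passed with spike-in library sizes, where GOSR1 had an adjusted p of 0.091 and an almost equal log2 fold change of -0.68.

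The syntaxins of the plasma membrane held the largest falls after VTI1B. STX11, a syntaxin of lymphocyte granule release that lacks a membrane anchor of the usual kind (chromosome 6 at 144150526 to 144188370), was at 12.0, 12.0 and 8.32 CPM in siSCR and at 4.84, 4.18 and 4.20 CPM in siSURF2. It fell by 1.29 ± 0.15 (adjusted p = 2.2e-08), with siSCR replicate 3 the lowest control but still above every siSURF2 library. STX3, known from the apical surface of epithelia (chromosome 11 at 59713456 to 59805882), was at 153, 155 and 136 CPM and then at 74.5, 84.7 and 84.5 CPM. The fall of 0.86 ± 0.06 (adjusted p = 1.9e-12) took it from 22.5 to 12.4 CPM per kb of exon. Of 4 epithelial markers 3 were tested: CDH1 fell (-2.70 ± 0.31), KRT8 fell (-0.50 ± 0.05) and EPCAM rose (0.99 ± 0.13), while KRT19 had 0 to 4 counts per library. Their summed level was 998 to 1069 CPM in siSCR and 712 to 754 CPM in siSURF2. It was almost all KRT8 (1028 CPM on average in siSCR and 726 in siSURF2). CDH1 averaged only 3.19 and 0.484 CPM, and EPCAM 4.41 and 8.74 CPM. The part of these markers in the fall of STX3 was not tested. The calls of STX11 and STX3 held with spike-in library sizes (adjusted p = 0.0011 and 0.012).

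Other plasma membrane members rose, among them the SNAREs of synaptic vesicle release. STX1A, the neuronal Qa SNARE, was at 10.1, 10.5 and 8.32 CPM in siSCR and at 17.5, 16.4 and 18.4 CPM in siSURF2. It rose by 0.86 ± 0.10 (adjusted p = 4.9e-08, and 0.038 with spike-in library sizes). Its groups did not overlap. STX1A shares 17.9% of its exon bases with BUD23 on the opposite strand, and BUD23, a ribosomal RNA methyltransferase, fell by 0.21 ± 0.05 (adjusted p = 0.0020).

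VAMP2, the synaptic R SNARE, shares 13.2% of its exon bases with AC129492.3 on the same strand. It was at 14.3, 15.9 and 17.0 CPM and then at 26.2, 21.5 and 24.1 CPM (0.60 ± 0.09, adjusted p = 2.1e-06). SNAP25, the Qbc SNARE that completes this bundle, was at 6.13, 7.17 and 8.06 CPM and then at 8.85, 11.7 and 9.90 CPM (0.51 ± 0.13, adjusted p = 0.0017). The groups of VAMP2 and of SNAP25 did not overlap. VAMP1, a relative of VAMP2 that also serves synaptic release, did not pass (-0.04 ± 0.10). Of 5 neuronal or neuroendocrine markers 4 were tested: CHGB, a granule protein, rose (1.30 ± 0.27), RBFOX3 fell (27.6 to 13.8 CPM on average), and SYP and SYT1 did not pass (0.19 ± 0.13 and 0.50 ± 0.22). CHGA was at 1 to 4 counts per library. The summed level of these 5 markers was 37.7 to 43.5 CPM in siSCR and 30.6 to 30.8 CPM in siSURF2, and their part in the rise of the synaptic SNAREs was not tested.

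Of the other 5 tested plasma membrane members, 2 rose and 3 did not pass, beside 25.8% higher and 26.2% lower over all genes. STX4, a Qa SNARE of regulated and constitutive secretion, rose from 25.4 ± 2.17 to 31.4 ± 1.27 CPM (0.31 ± 0.07, adjusted p = 9.2e-04), and VAMP3, an R SNARE of recycling vesicles, rose by 0.19 ± 0.06 (adjusted p = 0.0044). SNAP23, their Qbc partner in most cells, had a log2 fold change of 0.03 ± 0.06 (adjusted p = 0.65), STX2 of 0.05 ± 0.06 (adjusted p = 0.49) and VAMP1 of -0.04 ± 0.10 (adjusted p = 0.76). The sign of SNAP23 turned without siSURF2 replicate 3, that of STX2 with spike-in library sizes, and that of VAMP1 with upper-quartile factors or without replicate 2 of either group. SNAP23 shares 23.6% of its exon bases with an antisense gene, and VAMP1 shares 9.47% with TAPBPL, which rose by 0.85 ± 0.11. The remaining members at this site were nearly silent: STX19 had 0 counts in every siSCR library, which allows up to 3 counts in each, and 3, 2 and 1 counts in siSURF2. VAMP5, known from muscle, had 1, 1 and 3 counts and then 1, 2 and 1, and neither was tested.

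STX17 is the Qa SNARE of autophagosomes and joins SNAP29 and VAMP8 in fusion with the lysosome. It was at 20.5, 20.8 and 21.5 CPM in siSCR and at 27.5, 27.7 and 27.5 CPM in siSURF2, with no overlap (0.40 ± 0.07, adjusted p = 4.6e-05). SNAP29, its Qbc partner, had a log2 fold change of -0.09 ± 0.06 (adjusted p = 0.23) at 62.0 ± 2.58 and 58.4 ± 2.77 CPM. SNAP47, a SNAP25 relative, fell from 49.7 ± 2.12 to 39.6 ± 0.618 CPM (-0.33 ± 0.06, adjusted p = 5.3e-05). JMJD4 lies opposite SNAP47, shares 35.3% of its exon bases and fell by 0.78 ± 0.10, so with no strand setting given reads of these genes cannot be told apart there.

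Of the 4 genes that recycle SNARE bundles, 2 fell and none rose by edgeR, beside 26.2% and 25.8% over all genes, a number too small to set against that share (0 as well at an unadjusted p under 0.05, with DESeq2 or with limma-voom). NSF, the ATPase, was at 73.0, 75.8 and 79.6 CPM and then at 64.0, 66.2 and 59.2 CPM (-0.27 ± 0.06, adjusted p = 2.8e-04), while its partial copy NSFP1 held 198 counts over all libraries against 7825 for NSF. NAPG, which encodes gamma-SNAP, went from 50.3 ± 2.20 to 36.8 ± 2.27 CPM (-0.45 ± 0.06, adjusted p = 1.2e-06). The groups of NSF and of NAPG did not overlap. NAPA and NAPB, for alpha- and beta-SNAP, had log2 fold changes of 0.03 ± 0.06 and 0.11 ± 0.11 (adjusted p = 0.77 and 0.45), with signs that turned in 3 settings for NAPA and in 1 for NAPB. NAPA shares 16.9% of its exon bases with NAPA-AS1.

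By helix class, with 25.8% of all genes higher and 26.2% lower, the 11 tested Qa genes divided into 5 higher and 4 lower, and the 10 tested R genes into 4 higher and 3 lower. The 4 Qb genes besides VTI1B were 3 lower and none higher, and at an unadjusted p under 0.05 the counts were 4 and 0 (limma-voom called 4 lower and DESeq2 2). Of 6 Qc genes 1 rose and 3 fell, and of 4 Qbc genes 1 rose and 1 fell.

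SNARE pairing is steered by Sec1/Munc18 (SM) proteins, which clasp syntaxins, and by tethers, which hold vesicles near their target. The accessory genes, listed by function, were SM proteins, tethers, and synaptotagmins, complexins and other SNARE binders. Of these 66 genes 63 were tested: 19 rose, 9 fell and 35 did not pass (median 0.06), beside 25.8% and 26.2% over all genes. With no normalization factors the counts higher and lower were 25 and 7, with upper-quartile factors 27 and 6, and with spike-in library sizes 3 and 1. The median log2 fold change of all genes was 0.030, 0.050 and -0.035 in these settings, in that order, against 0.0042 with TMM. The shares of 25.8% and 26.2% hold for TMM only, and those of the other settings are not given here. The tethers HOPS and CORVET, which work with the late endosomal and early endosomal SNAREs, include VPS39 and VPS8, and their list also holds VIPAS39, a partner of VPS33B. Of the 8 listed genes 7 rose, TGFBRAP1 did not pass (0.04 ± 0.06) and none fell by edgeR, at an unadjusted p under 0.05, or with DESeq2 or limma-voom.

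VPS8, specific to CORVET, rose from 23.7 ± 1.64 to 38.5 ± 3.09 CPM (0.70 ± 0.08, adjusted p = 8.7e-09). TGFBRAP1, which did not pass (0.04 ± 0.06), is also specific to CORVET. VPS39, specific to HOPS, was at 44.2, 46.8 and 50.3 CPM and then at 70.6, 69.7 and 72.5 CPM (0.59 ± 0.06, adjusted p = 2.6e-09). VPS41, also specific to HOPS, rose less (0.24 ± 0.05, adjusted p = 4.6e-04). HOPS serves the bundle of syntaxin 7. RNA of VPS39 and VPS41 was thus higher, as was that of STX7, while that of VTI1B was lower. A link between these changes was not tested. VPS33A, the SM protein inside HOPS, rose by 0.21 ± 0.06 (adjusted p = 0.0043). With spike-in library sizes none of the 8 genes in the HOPS and CORVET list was called higher.

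Among 7 SM proteins 3 rose and 1 fell (2 and 0 with DESeq2), beside 25.8% higher and 26.2% lower over all genes. STXBP2, known as Munc18-2, a partner of syntaxin 11 and syntaxin 3, was at 17.5, 14.1 and 15.8 CPM in siSCR and at 35.3, 31.6 and 31.6 CPM in siSURF2 (1.06 ± 0.08, adjusted p = 1.8e-11). Its level rose where STX11 and STX3 fell. SCFD1, the partner of syntaxin 5, fell by 0.19 ± 0.07 (adjusted p = 0.017), in the same direction as STX5, and SCFD2 rose by 0.20 ± 0.07 (adjusted p = 0.021).

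The other tether lists are small, and their counts stand beside 25.8% higher and 26.2% lower over all genes. The NRZ tether, which serves the STX18 bundle, had 2 of 3 genes lower. RINT1 fell by 0.29 ± 0.07 (adjusted p = 6.8e-04) and ZW10 by 0.27 ± 0.06 (adjusted p = 1.8e-04). Of 9 exocyst genes, which tether secretory vesicles at the plasma membrane, 4 rose (3 with DESeq2). EXOC4 (0.46 ± 0.06) and EXOC1 (0.27 ± 0.06) led the rises, and EXOC8 fell (-0.28 ± 0.08). Of 5 GARP and EARP genes VPS50 rose (0.52 ± 0.07) and VPS54 fell (-0.22 ± 0.06), so the subunit specific to EARP and the one specific to GARP went opposite ways. Of 8 COG genes COG3 rose (0.38 ± 0.08) and the rest did not pass. None of 8 coiled-coil tethers of the Golgi and endosomes passed by edgeR, at an unadjusted p under 0.05, or with DESeq2 or limma-voom. Their log2 fold changes lay between -0.11 and 0.10.

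Among 15 tested synaptotagmins, complexins and other SNARE binders, 3 rose and 4 fell (3 and 2 with DESeq2), beside 25.8% higher and 26.2% lower over all genes. ESYT2, an extended synaptotagmin that ties the endoplasmic reticulum to the plasma membrane, rose from 61.8 ± 4.01 to 134 ± 3.48 CPM (1.11 ± 0.06, adjusted p = 1.4e-15). CPLX1, a complexin that binds the synaptic bundle, was at 3.51, 1.93 and 2.10 CPM and then at 6.98, 7.54 and 5.95 CPM (1.45 ± 0.19, adjusted p = 2.1e-07). STXBP6, known as amisyn, which binds syntaxin 1, fell from 13.9 ± 0.943 to 7.11 ± 0.884 CPM (-0.97 ± 0.12, adjusted p = 4.9e-08), and TXLNA, a syntaxin binder, fell by 0.50 ± 0.05 (adjusted p = 1.8e-09). CLINT1, the clathrin adaptor that recognises Vti1b as cargo, had a log2 fold change of -0.06 ± 0.05 (adjusted p = 0.31) at 137 ± 3.16 and 131 ± 3.71 CPM.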

How the data were processed

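The deposited values are raw counts of reads for each gene in 6 polyA libraries, made by the authors. Per the submitters' processing notes the build was GRCh38, with fastp 0.23.1 and STAR 2.5.2b among the tools. The counting tool, its annotation and any use of strand: not given in the sources used here. The 92 ERCC rows stayed out of library sizes and tests. In R 4.3.3 and edgeR 4.0.16, low genes were removed by filterByExpr (at least 10 counts, total 15), library sizes were scaled by TMM, and the robust quasi-likelihood F-test was run on group alone. P-values of the 17561 genes were adjusted together (Benjamini-Hochberg, threshold 0.05). CPM use TMM library sizes. Before TMM, 1 CPM stands for 17.1 to 19.7 counts. Exon lengths and overlaps come from GENCODE release 29. Alternatives were DESeq2 1.42.0, limma-voom 3.58.1, other factors and filters, a replicate block and omission of each library.

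Members and lists were chosen with earlier results of these data known; 1 accessory gene is not reported here. Named were VTI1B, its partners and VTI1A, members past the threshold with a log2 fold change of at least 0.5 in size, the smallest adjusted p of each class and direction, untested members, and up to 2 accessory genes per list and direction. The other members and some accessory genes (SCFD2, TGFBRAP1, VIPAS39, VPS41, CLINT1) were named after their values were seen.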

Additional observations from a re-analysis of the deposited data

How the results depend on the processing

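Scaling by ERCC spike-in totals changed the counts most: 1 member besides VTI1B was higher and 2 were lower, and 3 accessory genes were higher and 1 lower. With it 0 endoplasmic reticulum and Golgi members were lower and 0 genes of the HOPS and CORVET list higher. The cause was not tested, and the share of all genes called under this scaling is not given here. On leaving out 1 library, 10 to 11 members were higher and 14 to 16 lower, and 8 to 9 early secretory members were lower. In the HOPS and CORVET list 7 to 7 genes were then higher, and 18 to 21 accessory genes were higher and 6 to 9 lower. The VTI1B log2 fold change lay between -2.24 and -2.18. Signs turned, with no call, for STX2 (-0.0078) and NAPA (-0.0074) with spike-ins and for VAMP1 (0.0056) and SEC22A (0.0013) with upper-quartile factors. On leaving out 1 library the log2 fold change lay between -0.152 and 0.081 for VAMP1, -0.025 and 0.085 for SNAP23, -0.079 and 0.022 for SEC22A, -0.028 and 0.077 for NAPA, and -0.012 and 0.176 for NAPB. With the replicate block 11 members were higher and 16 lower, as without it. Replicate numbers did not pair the libraries (same-number correlations of 0.0035, -0.092 and -0.039). Members with few counts, such as VAMP8 (1.45 and 2.42 CPM on average), are the least precise: its standard error was 0.25.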
